A study of Caenorhabditis elegans with 36 samples.

Results

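The 6 vitellogenin genes of *Caenorhabditis elegans*, *vit-1* to *vit-6*, were described across 8 lists of HDA-1 and DVE-1 binding regions. They were chosen by symbol alone from the 19973 protein-coding genes on the nuclear chromosomes of the WBcel235 assembly. For each gene, peaks within 500 bp of the annotated 5′ end and the base pairs of the gene body that lay in a peak were taken from every list. Vitellogenins are the lipid-carrying precursors of the yolk. The intestine of the adult hermaphrodite makes them in very large amounts and secretes them into the body cavity, and growing oocytes take them up through the receptor RME-2. *vit-1* and *vit-2* encode yolk proteins of the B type and *vit-3*, *vit-4* and *vit-5* those of the A type, whereas *vit-6* encodes a more distant precursor that is cut into the smaller yolk proteins.

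HDA-1 is a class I histone deacetylase and DVE-1 a homeodomain protein of the SATB type, both studied here as factors of the mitochondrial unfolded protein response. Day 1 adults were harvested whole, and chromatin was precipitated through GFP from 2 strains, one with the transgene *hda-1p::hda-1::gfp* and the other with *dve-1p::dve-1::gfp*, both in a *glp-4(bn2)* background. Each tagged protein was overexpressed from its own promoter, and all worms, controls included, carried this temperature-sensitive allele, which impairs the germ line, and were raised at 20 °C. HDA-1-GFP worms were fed the L4440 empty vector (control RNAi) or *dve-1* RNAi, and DVE-1-GFP worms the empty vector or *hda-1* RNAi, each alone or followed by *atp-2* RNAi. *atp-2* encodes part of the ATP synthase of mitochondria. The 36 libraries were 18 ChIP and 18 input samples, with 2 ChIP samples per condition and 3 in both HDA-1 conditions with *dve-1* RNAi. The question put to the vitellogenin genes was where each protein was listed on them, and how far that differed with *atp-2* RNAi and with RNAi of the partner protein.

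Each condition has 1 deposited list, which gives the position of each peak and nothing on its height, its reads or its p-value. Depth and the spread between samples could therefore not be read from the files, no test between conditions was possible, and a region that is not listed is a region that did not pass the peak calling, not one shown to be free of the protein. In whole worms, binding in fewer cells and less binding per cell cannot be told apart. No sample came from worms without a GFP-tagged protein. The lists held between 4279 and 9862 peaks. Both HDA-1 lists with *dve-1* RNAi had narrower peaks than the other 6 lists, with median widths of 733 and 710.5 bp against 1054 to 1301 bp, and narrowest peaks of 197 and 189 bp against 256 to 275 bp. Their libraries also numbered 3 rather than 2 per condition, and their labels carry a series of library codes of their own. Those of the *hda-1* RNAi libraries carry other codes and those of the libraries on control RNAi none, so that whether the libraries with and without RNAi of the partner were prepared and sequenced together is not given. For either protein, RNAi of the partner and such a difference between sets of libraries cannot be told apart in the comparisons that follow. The authors also reported that *dve-1* RNAi strongly lowered the HDA-1-GFP protein and that *hda-1* RNAi lowered DVE-1-GFP. A smaller amount of the precipitated protein and a change in where it bound cannot be told apart here either.

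The promoters of the vitellogenin genes carry known regulatory words, and they are printed here because they are the stretches in which the lists differed most simply, by being covered or not. Each line is the 250 bases before the annotated 5′ end, 5′ to 3′ along the gene, from the RefSeq genome of WBcel235. Capitals mark vitellogenin promoter element 1, the word TGTCAAT, and element 2, the GATA-type word CTGATAA. Both strands were searched, and a copy on the other strand appears as its reverse complement.
*vit-1*, chrX:7727639-7727888, plus strand: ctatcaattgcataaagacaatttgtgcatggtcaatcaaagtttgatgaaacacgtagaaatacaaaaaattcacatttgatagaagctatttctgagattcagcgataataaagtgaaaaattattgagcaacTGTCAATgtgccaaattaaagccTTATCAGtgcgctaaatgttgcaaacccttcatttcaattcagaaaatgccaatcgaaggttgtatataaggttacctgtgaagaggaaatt
*vit-2*, chrX:5100792-5101041, plus strand: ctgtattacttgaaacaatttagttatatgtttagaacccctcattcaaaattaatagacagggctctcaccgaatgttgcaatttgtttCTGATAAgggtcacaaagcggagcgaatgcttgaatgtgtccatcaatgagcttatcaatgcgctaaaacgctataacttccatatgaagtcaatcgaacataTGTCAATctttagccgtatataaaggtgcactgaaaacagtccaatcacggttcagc
*vit-3*, chrX:3572550-3572799, minus strand: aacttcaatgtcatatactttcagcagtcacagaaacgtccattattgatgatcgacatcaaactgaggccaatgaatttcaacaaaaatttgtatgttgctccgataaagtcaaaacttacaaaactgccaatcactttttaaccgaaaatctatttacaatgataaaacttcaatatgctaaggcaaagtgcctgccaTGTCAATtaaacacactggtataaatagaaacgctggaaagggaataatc
*vit-4*, chrX:3563966-3564215, minus strand: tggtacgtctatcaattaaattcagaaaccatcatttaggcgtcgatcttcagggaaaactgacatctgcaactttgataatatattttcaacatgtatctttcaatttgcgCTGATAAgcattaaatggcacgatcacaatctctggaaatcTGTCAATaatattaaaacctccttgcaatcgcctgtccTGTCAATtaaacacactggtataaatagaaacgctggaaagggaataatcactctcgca
*vit-5*, chrX:3403221-3403470, plus strand: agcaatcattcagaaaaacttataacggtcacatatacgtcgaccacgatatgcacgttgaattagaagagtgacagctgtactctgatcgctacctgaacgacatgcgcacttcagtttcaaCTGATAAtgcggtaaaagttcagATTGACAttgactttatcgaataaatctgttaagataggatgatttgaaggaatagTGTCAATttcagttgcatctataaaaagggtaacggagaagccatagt
*vit-6*, chrIV:8260907-8261156, plus strand: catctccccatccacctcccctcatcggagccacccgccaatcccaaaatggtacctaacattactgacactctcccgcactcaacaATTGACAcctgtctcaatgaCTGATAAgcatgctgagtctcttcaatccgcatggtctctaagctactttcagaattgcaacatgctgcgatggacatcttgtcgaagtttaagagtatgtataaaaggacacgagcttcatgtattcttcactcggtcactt

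Element 1 stood in all 6 promoters, in 2 copies in those of *vit-4* and *vit-5*, and in 4.81% of the 19973 promoters of the same length. Element 2 stood in 5 of the 6, the exception being *vit-3*, and in 7.2% of all promoters. Both elements occurred together in the same 5 vitellogenin promoters and in 79 promoters in all (0.396%). The shorter GATA-type word TGATAA, which lies within element 2, was found in all 6 and in 26.8% of promoters, and CTTATCA in 4 of the 6 (*vit-1*, *vit-2*, *vit-4* and *vit-6*) and in 8.2%. CTTATCA shares 6 bases with element 2 on the other strand, and 4 of its 5 matches overlapped a copy of element 2.

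Outside these words the promoters had little in common. Aligned end to end, any pair was identical at between 46.4% and 58.5% of positions, the highest being *vit-3* with *vit-4*. Within the printed bases these genes share an unbroken run of 50 bases, from -50 to -1 in *vit-3* and from -59 to -10 in *vit-4*, that begins with element 1. Its end at -1 of *vit-3* is the end of the sequence searched, not of the shared stretch. The longest run in any other pair was 11 bases, in *vit-4* and *vit-6* around element 2. Within the A type and within the B type the coding sequences were far closer. The coding sequences of *vit-3* and *vit-4* were 99% identical, those of *vit-5* were 97.7% and 97.8% identical to them, and *vit-1* and *vit-2* matched at 93.8%. Across these groups the identity was between 67.7% and 68.6%, and *vit-6* matched the others at 53.9% to 54.7%.

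Under control RNAi, peaks of both proteins lay at the 5′ ends of all 6 vitellogenin genes, in every case over the annotated end itself. Within the same window, 31.8% of all protein-coding genes held a peak of HDA-1 and 19.9% one of DVE-1. On chromosome X, which holds *vit-1* to *vit-5*, these shares were 37.4% and 24.1%. The 250 bp promoters printed above were covered whole by both proteins in all 6 genes. Peaks also lay within 500 bp of the 3′ end in 6 of 6 genes for HDA-1, against 19.9% of all genes, and in 6 of 6 for DVE-1, against 12.9%.

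*vit-6* (WBGene00006930, IV:8261157 to 8266459, plus strand) is the only member outside chromosome X and was covered whole by 1 peak of each protein under control RNAi. The HDA-1 peak ran from 564 bp before the 5′ end to 5731 bp after it and the DVE-1 peak from 605 bp before to 6013 bp after it. *vit-2* (WBGene00006926, X:5101042 to 5106169, plus strand) was likewise covered whole, by an HDA-1 peak of 7314 bp and a DVE-1 peak of 7033 bp that both reached past its 3′ end into C42D8.9. *vit-1* (WBGene00006925, X:7727889 to 7733168, plus strand) lay whole in an HDA-1 peak of 6409 bp and a DVE-1 peak of 6611 bp. Thus 3 of the 6 genes were single blocks of both proteins from promoter to 3′ end. Of the 6951 genes of 2500 to 10000 bp, members included, 3.31% had the whole body covered by HDA-1 and 2.09% by DVE-1. These shares take each protein apart, with any number of peaks and without the promoter. How many genes were single blocks of both was not counted.

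The A-type genes were covered at their ends rather than throughout. In *vit-5* (WBGene00006929, X:3403471 to 3408603, plus strand), HDA-1 covered 2642 of 5133 bp (51.5%) and DVE-1 3997 bp (77.9%), each in a 5′ and a 3′ peak with a gap between them. In *vit-3* (WBGene00006927, X:3567355 to 3572549, minus strand), HDA-1 covered 1458 of 5195 bp (28.1%) and DVE-1 2203 bp (42.4%). *vit-4* (WBGene00006928, X:3558769 to 3563965, minus strand) was the only member in which HDA-1 covered more than DVE-1, 1280 against 317 of 5197 bp. Its HDA-1 peak reached 1032 bp into the gene and its DVE-1 peak 26 bp. In *vit-3* and *vit-5* every base under HDA-1 was also under DVE-1, which covered a further 745 and 1355 bp.

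**Figure D1:**
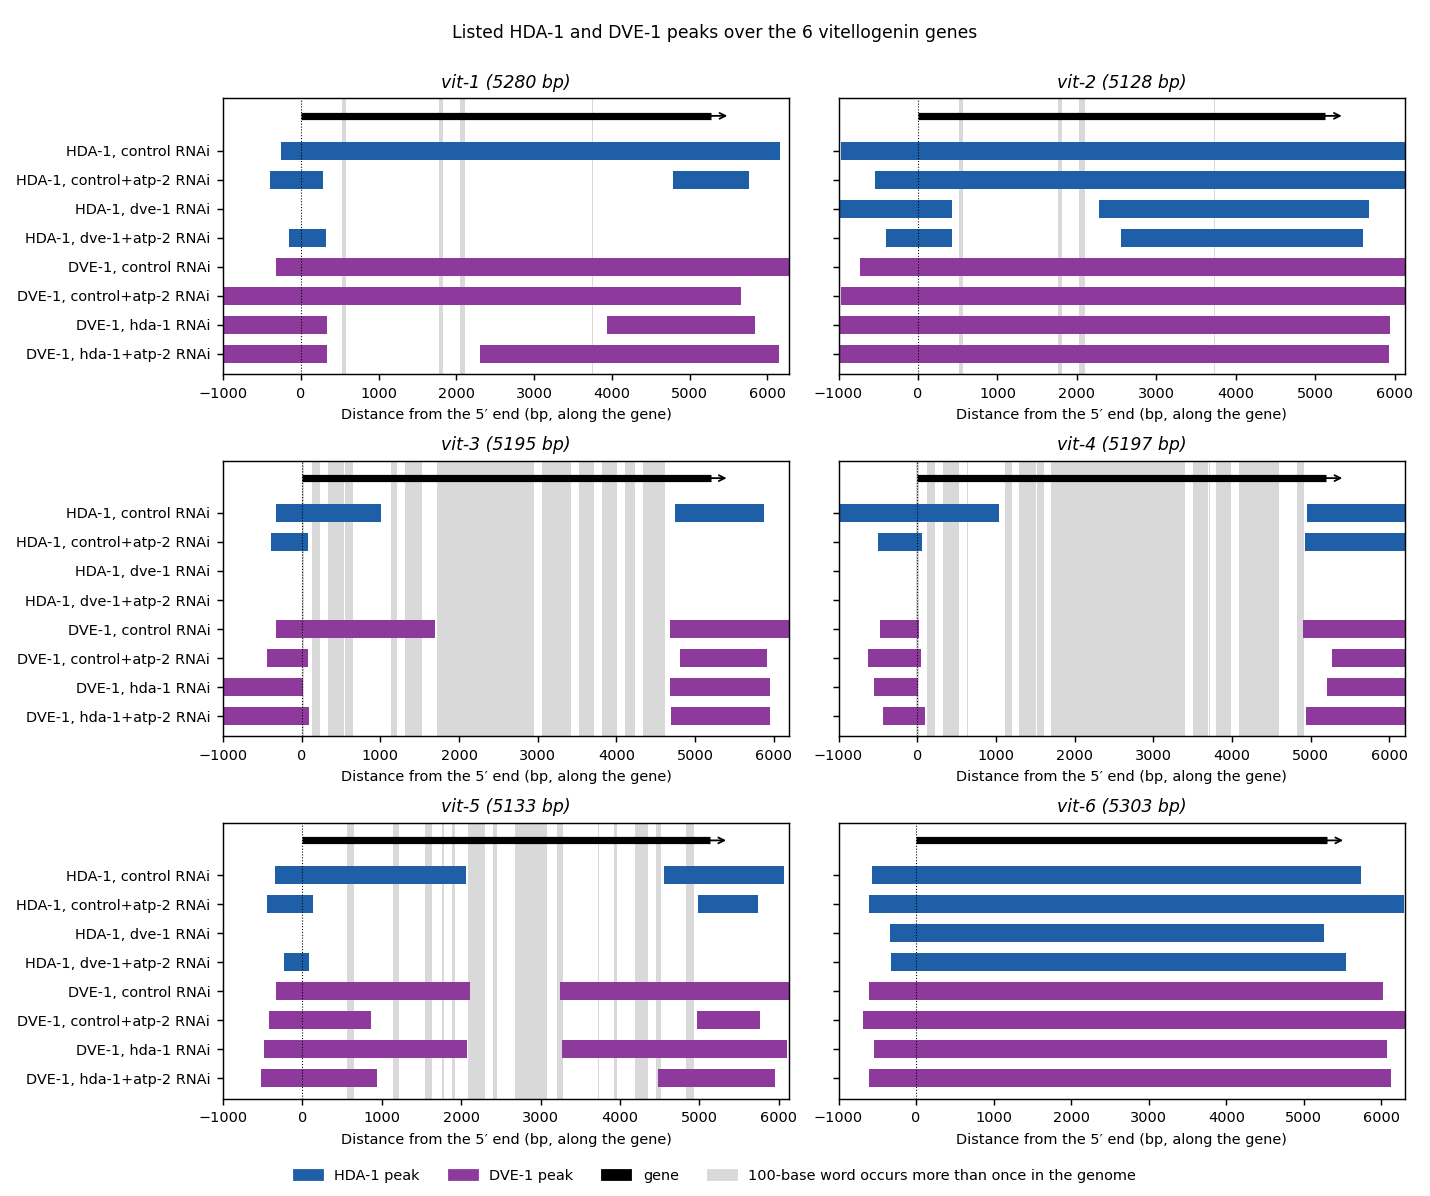
Peaks of each list (rows, HDA-1 blue and DVE-1 purple) along each vitellogenin gene, by distance from the 5′ end in bp along the gene. Black arrows are the genes, grey bands are bases whose 100-base word occurs more than once in the genome, and peaks are drawn only to 1000 bp beyond each gene. *vit-6* is covered from end to end in nearly every row, the HDA-1 row for *dve-1* RNAi is empty in *vit-1*, *vit-3*, *vit-4* and *vit-5*, and most of the middle of *vit-3* and *vit-4* is grey and without peaks.

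Over the family as a whole, HDA-1 covered 21091 of the 31236 bp of gene body under control RNAi (67.5%) and DVE-1 22228 bp (71.2%). The median of the 6 genes was 75.7% for HDA-1 and 88.9% for DVE-1, while the median of all genes of 2500 to 10000 bp was 0% in every one of the 8 lists and their mean between 7.29% and 11.2%. For the 1235 of these genes on chromosome X the values were higher, with medians between 0% and 3.6% and means between 9.1% and 16.2%.

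With *atp-2* RNAi on control RNAi, all 6 genes still had a peak of each protein at the 5′ end, against 31.3% of all genes for HDA-1 and 31.2% for DVE-1, and all 6 promoters were still covered over their 250 bp. With only the widest 4279 peaks, as many as the shortest list holds, the HDA-1 count was 2 of 6 and the DVE-1 count 4 of 6. The gene bodies of *vit-1*, *vit-3*, *vit-4* and *vit-5* were less covered for HDA-1, and those of *vit-3*, *vit-4* and *vit-5* for DVE-1. In *vit-4* the lower DVE-1 value came from a peak over the neighbour *rgs-7*, as given below. How many of all genes were less covered in this way was not counted. For HDA-1 the total was 11897 bp (38.1%) and for DVE-1 17259 bp (55.3%). The mean over all genes of 2500 to 10000 bp was 11.2% under control RNAi and 10.2% with *atp-2* RNAi for HDA-1. For DVE-1 that mean was 7.29% and 10.1%. *vit-2* and *vit-6* were again covered whole by both proteins. Without *vit-3*, *vit-4* and *vit-5* the shares were 71.4% for HDA-1, where *vit-1* alone was not whole, and 100% for DVE-1, as under control RNAi.

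For HDA-1 the gene that differed most in covered bp was *vit-1*, and for DVE-1 it was *vit-5*. The single HDA-1 block of *vit-1* under control RNAi was replaced by a 5′ peak of 683 bp, which reached 281 bp into the gene, and a 3′ peak of 977 bp, so that 780 of 5280 bp were covered (14.8%) and the 3280 bp between the first and last 1000 bp were free of peaks. DVE-1 still covered all of *vit-1* in the same condition, and 4500 bp lay under DVE-1 alone. Of the 4 members at least 50% covered by HDA-1 under control RNAi, *vit-1* was the only one with coverage at least 50 percentage points lower with *atp-2* RNAi. Among all 1865 such genes, 302 met the same rule (16.2%), so that 1 of 4 members is close to the background.

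In the A-type genes both proteins covered less with *atp-2* RNAi. HDA-1 covered 275 bp of *vit-5* against 2642 bp under control RNAi, 81 bp of *vit-3* against 1458 bp and 330 bp of *vit-4* against 1280 bp. DVE-1 covered 1027 bp of *vit-5* against 3997 bp, 474 bp of *vit-3* against 2203 bp and 47 bp of *vit-4* against 317 bp. What remained lay at the gene ends. The 5′ peaks of HDA-1 reached only 130, 80 and 63 bp into *vit-5*, *vit-3* and *vit-4*. For DVE-1 in *vit-4*, 290 of the 317 bp lay in a peak over *rgs-7*, the gene beyond its 3′ end. The DVE-1 5′ peak of *vit-4* alone covered 27 bp of the gene under control RNAi and 47 bp with *atp-2* RNAi. For DVE-1, 1 of the 4 members at least 50% covered under control RNAi, *vit-5*, was lower by at least 50 points, against 124 of 1162 such genes (10.7%). At the 3′ ends, HDA-1 peaks were listed for 5 of 6 genes with *atp-2* RNAi, *vit-3* being without one, against 19% of all genes, and DVE-1 peaks for 6 of 6, against 19.8%.

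**Figure D2:**
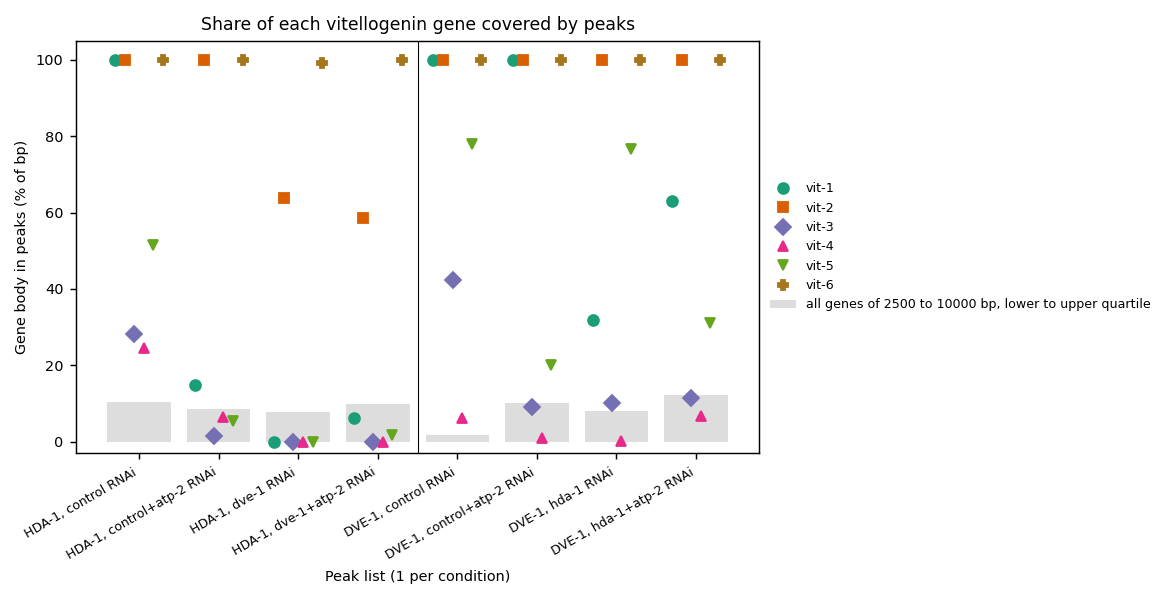
Percent of each vitellogenin gene body in peaks (vertical axis) in each of the 8 lists (horizontal axis). Symbols are genes and grey bars the lower to upper quartile of all genes of 2500 to 10000 bp. *vit-2* and *vit-6* stay at 100% in all 4 DVE-1 lists, and the median of the 6 genes is 75.7% for HDA-1 under control RNAi and 0% under *dve-1* RNAi.

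Under *dve-1* RNAi, HDA-1 peaks were listed at the 5′ ends of 2 of the 6 genes, *vit-2* and *vit-6*, against 27.8% of all genes. On chromosome X that share was 35.8%. *vit-1*, *vit-3*, *vit-4* and *vit-5* had no HDA-1 base pair within 500 bp of the 5′ end, in the 250 bp promoter or in the gene body. Thus 4 of 6 members with an HDA-1 5′ peak under control RNAi had none under *dve-1* RNAi. The same held for 1444 of all 6343 genes with such a peak (22.8%). Of the 4 members at least 50% covered under control RNAi, *vit-1* and *vit-5* were lower by at least 50 points, against 517 of 1865 genes (27.7%). These values share the control list with the comparison with *atp-2* RNAi.

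Both genes that kept HDA-1 under *dve-1* RNAi differed in how much they kept. *vit-6* was covered over 5262 of 5303 bp (99.2%) by 1 peak of 5600 bp, which began 338 bp before the 5′ end. *vit-2* had a 5′ peak that reached 421 bp into the gene and a second peak from 2279 to 5680 bp after the 5′ end, and together they covered 3271 of 5128 bp (63.8%). HDA-1 covered 8533 bp of the family in this list (27.3%), all of it in these 2 genes, and 54.3% of *vit-1*, *vit-2* and *vit-6* taken alone. At the 3′ ends peaks were listed for the same 2 of 6 genes, against 16.9% of all genes.

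With *dve-1* and *atp-2* RNAi together, HDA-1 peaks were listed at the 5′ ends of 4 of the 6 genes, against 31.8% of all genes. *vit-1* and *vit-5* had a 5′ peak that was missing under *dve-1* RNAi alone. These are 2 of 4 members without a peak there, against 1077 of 14419 genes (7.47%). The 14419 include the 10684 genes with no 5′ peak in any list, whereas these 4 members had one in every list without *dve-1* RNAi. Of all genes with that pattern and no peak under *dve-1* RNAi alone, 252 had one with both RNAi and 213 had none. Against these, 2 of 4 members is close to the background. The new peaks of *vit-1* and *vit-5* were narrow. That of *vit-1* was 470 bp wide and covered 149 bp of its promoter and 321 bp of the gene, and that of *vit-5* was 316 bp wide and covered 228 and 88 bp. Neither was listed when peaks under 500 bp were left out, and the count of 4 was 1 with the widest 4279 peaks. *vit-3* and *vit-4* had no HDA-1 base pair in the promoter or the body in this list either. Compared with *atp-2* RNAi on control RNAi, 2 of 6 members were therefore without their 5′ peak, against 1043 of 6242 genes (16.7%). *vit-6* was covered whole and *vit-2* over 3004 bp (58.6%). The family total was 8716 bp (27.9%, or 54.9% without the A-type genes), and 3′ peaks were listed for 2 of 6 genes, against 20.4%.

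DVE-1 stood at the 5′ ends of all 6 genes with *hda-1* RNAi, against 29.9% of all genes, and with *hda-1* and *atp-2* RNAi, against 34.9%. All 6 promoters were covered over their 250 bp in both lists. At the 3′ ends all 6 genes again had a peak, against 18.4% and 22.1% of all genes. *vit-2* and *vit-6* were covered whole in both.

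The body of *vit-1* had a gap in both lists with *hda-1* RNAi. DVE-1 covered 1686 bp (31.9%) with *hda-1* RNAi and 3321 bp (62.9%) with *hda-1* and *atp-2* RNAi, compared with all 5280 bp in both lists on control RNAi. It was the only 1 of the 4 members at least 50% covered under control RNAi whose coverage was at least 50 points lower with *hda-1* RNAi, against 205 of 1162 genes (17.6%). *vit-5* kept its coverage with *hda-1* RNAi, at 3935 bp (76.7%) against 3997 bp, and had 1593 bp (31%) with *atp-2* RNAi added. *vit-3* was covered over 530 and 598 bp and *vit-4* over 11 and 349 bp in the same pair of lists. The family totals were 16593 bp (53.1%) and 16292 bp (52.2%). Without the A-type genes they were 77.1% and 87.5%.

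**Figure D3:**
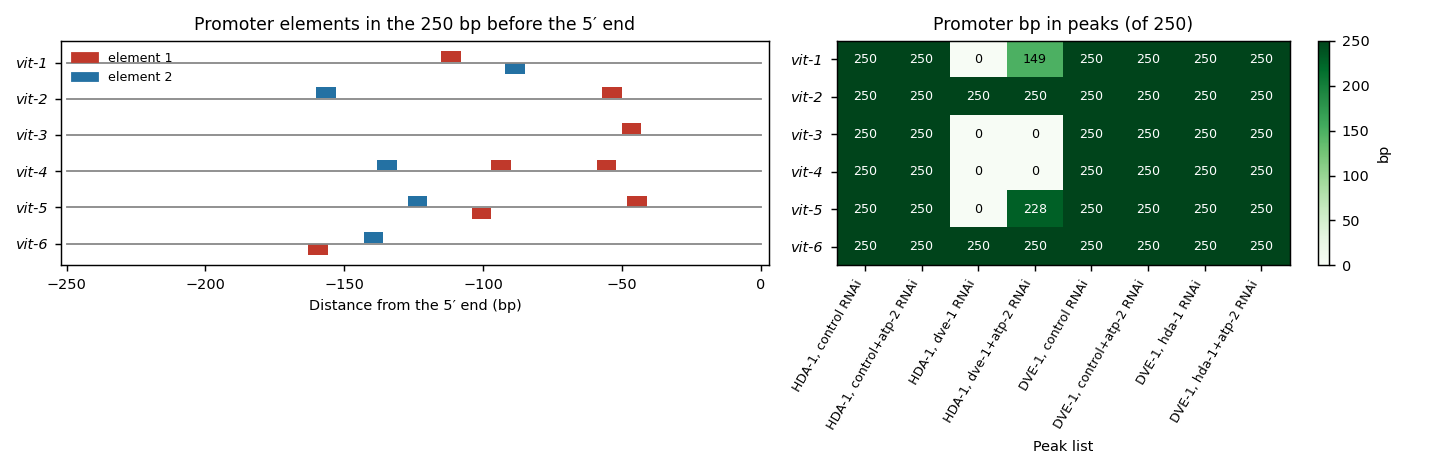
Left, copies of promoter elements 1 and 2 by distance from the 5′ end in bp, drawn above the line when on the strand of the gene and below it when on the other strand. Right, base pairs of each 250 bp promoter in peaks of each list. The promoters are covered over 250 bp in every list except both HDA-1 lists with *dve-1* RNAi, where *vit-3* and *vit-4* are at 0 bp.

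The promoter values of these lists fell into an almost complete presence or absence. Of 48 pairs of a gene and a list, 40 had all 250 bp covered, 6 had none and 2 had a part. The 5′ peaks gave 3 patterns in the family. *vit-2* and *vit-6* had a peak in all 8 lists, as had 2843 genes in all (14.2%). *vit-1* and *vit-5* lacked one only in the HDA-1 list with *dve-1* RNAi, a pattern of 252 genes (1.26%). *vit-3* and *vit-4* lacked one only in both HDA-1 lists with *dve-1* RNAi, a pattern of 213 genes (1.07%). The gene in the family without element 2, *vit-3*, shared its pattern with *vit-4*, which has element 2.

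Among the 6945 other genes of 2500 to 10000 bp, 26 were covered in every list at least as far as *vit-6* in its lowest list (0.374%). For *vit-2* that number was 75 (1.08%). At the other end, the coverage of *vit-1*, *vit-3*, *vit-4* and *vit-5* was 0% in at least 1 HDA-1 list. For DVE-1, *vit-4* was lowest under *hda-1* RNAi, at 0.212% of its body, a share that 37.7% of these genes matched or exceeded.

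The uneven coverage of the A-type genes has to be read beside their sequence, since the authors kept only reads that mapped to 1 place. A base was counted as unique when the 100-base word centred on it occurred once in the genome on either strand, with exact matches only. All of *vit-6*, 96.6% of *vit-1* and 96.5% of *vit-2* were unique, but only 72.7% of *vit-5*, 39.9% of *vit-3* and 34.1% of *vit-4*. Of the bases of *vit-3*, 58.3% had their word in *vit-4*. The longest stretch that is not unique ran over 1706 bp of *vit-4*, from 1702 to 3407 bp after the 5′ end, and over 1227 bp of *vit-3*, from 1722 to 2948 bp. The windows of 500 bp on each side of the 5′ ends were unique at every base in *vit-1*, *vit-2*, *vit-5* and *vit-6*, at 69.8% in *vit-3* and at 68.9% in *vit-4*.

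In the A-type genes under control RNAi, unique bases were covered more than copied ones for both proteins. In *vit-3* under control RNAi, HDA-1 peaks held 49.3% of the unique and 14% of the copied bases, and DVE-1 peaks 71% and 23.4%. In *vit-4* HDA-1 peaks held 52.8% and 10.1%, and in *vit-5* DVE-1 peaks held 87.6% and 52.1%. The order was the opposite in *vit-4* for DVE-1 under *hda-1* RNAi, where no unique base and 0.321% of the copied bases were covered. Over all 6 genes and unique bases alone, coverage in the order of the HDA-1 lists was 85.2% under control RNAi, 50.9% with *atp-2* RNAi, 37.1% with *dve-1* RNAi and 37.9% with both. For DVE-1 it was 88.9%, 73.1%, 68.5% and 69%. The order of the lists was the same as over all bases for HDA-1. For DVE-1 only both lists with *hda-1* RNAi, which lie within 1 percentage point of each other, changed places. How far the loss of reads in copied sequence set the gaps within *vit-3*, *vit-4* and *vit-5* was not tested. In *vit-1*, whose words are nearly all unique, the gap of the HDA-1 list with *atp-2* RNAi spanned unique sequence, and 15.3% of its unique bases were covered.

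**Figure D4:**
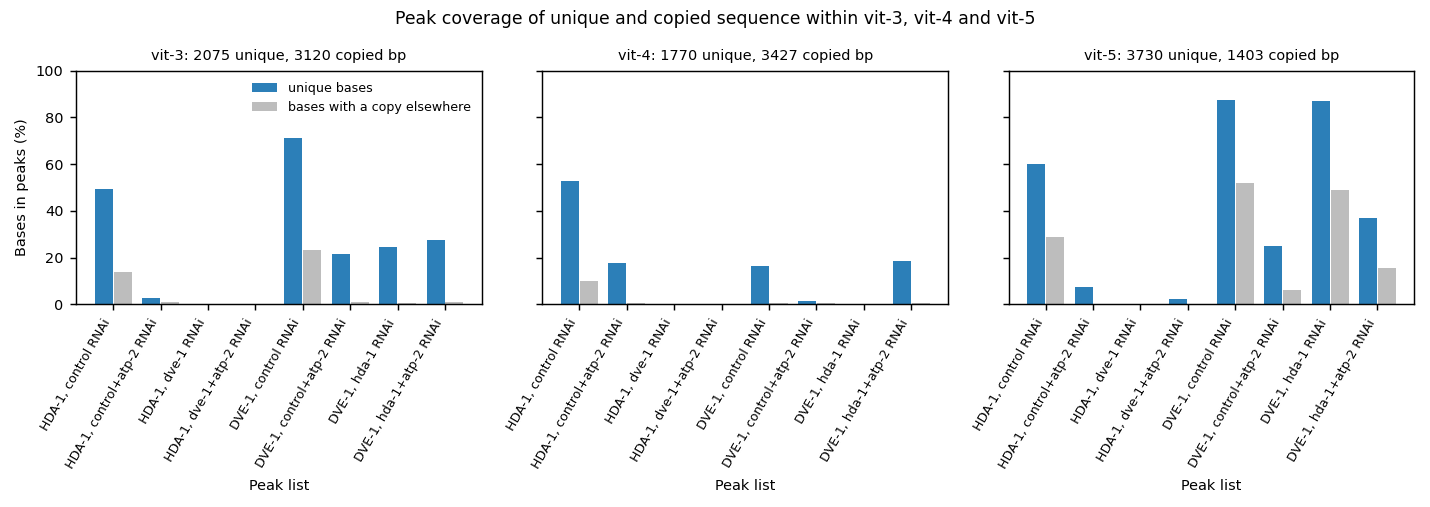
Percent of bases in peaks (vertical axis) in each list (horizontal axis) for *vit-3*, *vit-4* and *vit-5*, split into bases whose 100-base word occurs once in the genome (blue) and the others (grey). *vit-3* has 2075 unique and 3120 copied bp, and under control RNAi HDA-1 peaks hold 49.3% and 14% of them.

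Peaks over the vitellogenin genes often ran into a neighbour. The peak of *vit-1* reached *set-12*, which lies 165 bp after the 3′ end of *vit-1* on the other strand, in every list with a 3′ peak. In the DVE-1 lists with *atp-2* RNAi, *hda-1* RNAi or both, the 5′ peak of *vit-1* also took in *spp-14*, a saposin-like gene 1505 bp upstream. In the HDA-1 list with *dve-1* RNAi, 78% of *spp-14* was covered while *vit-1* had no peak. C42D8.9 overlaps the 3′ end of *vit-2* by 11 bp and was covered over 100% in both control lists and 63.8% under *dve-1* RNAi. The 3′ peak near *vit-4* extended over *rgs-7*, a regulator of G protein signalling, of which HDA-1 covered 50.3% under control RNAi and still 31.7% under *dve-1* RNAi, when *vit-4* itself had no peak. *unc-78*, 70 bp after *vit-5*, and T27A10.5, 294 bp before *vit-3*, were at 0% in the HDA-1 list with *dve-1* RNAi. *vit-3* and *vit-4* are each other's neighbours, 3389 bp apart.

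Genes known to control yolk gene expression were listed in part. Of 15 such regulators, HDA-1 had a 5′ peak at 10 under control RNAi, 9 with *atp-2* RNAi, 6 with *dve-1* RNAi and 10 with both, and DVE-1 at 7, 10, 11 and 10 in the corresponding lists. The shares of all genes in these lists were 31.8%, 31.3%, 27.8% and 31.8% for HDA-1 and 19.9%, 31.2%, 29.9% and 34.9% for DVE-1. A peak in all 8 lists was found at *unc-62*, a TALE homeodomain factor needed for vitellogenin expression, *elt-2*, the main GATA factor of the intestine, *pqm-1*, a zinc-finger factor, *sma-3*, a SMAD of the BMP-like pathway, and *daf-16*, the FOXO factor of insulin signalling. No list had one at *mab-3*, which represses yolk genes in males, *lin-29*, a heterochronic zinc-finger factor, or *lrp-2*, a lipoprotein receptor relative. These were 5 and 3 of the 15 regulators. Of all protein-coding genes, 14.2% had a 5′ peak in all 8 lists and 53.5% in none. Over the 8 lists, 6.53% to 10.2% of the body of *mab-3* and 0% to 21.2% of that of *lin-29* were nevertheless covered. Only *lrp-2* was at 0% throughout. *ceh-60*, which encodes the homeodomain partner of UNC-62, had a 5′ peak in 7 lists, the exception being HDA-1 with *dve-1* RNAi. HDA-1 peaks that were listed with *dve-1* and *atp-2* RNAi and not with *dve-1* RNAi alone stood at *ceh-60*, *tra-1*, the terminal sex determination factor, *sgk-1*, a kinase downstream of TORC2, and *daf-2*, the insulin receptor. Over all genes 7.47% of those without a peak had one in the longer list, of 9862 against 8512 peaks. That share counts the genes with no 5′ peak in any list, 53.5% of all genes. DVE-1 peaks listed with *atp-2* RNAi on control RNAi and not under control RNAi alone stood at *elt-7*, a second intestinal GATA factor, *rict-1*, a TORC2 subunit, and *sgk-1*, between lists of 4279 and 6484 peaks in which the share of all genes was 19.9% and 31.2%.

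Of 9 genes for yolk assembly and uptake, HDA-1 had a 5′ peak at 6 in each of its 4 lists and DVE-1 at 4, 6, 5 and 6, against 27.8% to 31.8% of all genes for HDA-1 and 19.9% to 34.9% for DVE-1. *rme-4*, *rab-5*, *rab-7* and the clathrin heavy chain *chc-1*, which act in endocytosis in many tissues, had one in all 8 lists. *rme-2*, the yolk receptor of the oocyte, had no 5′ peak in any list and 0% of its body covered. *rme-1*, a recycling factor, had no 5′ peak either, but between 46.6% and 77.8% of its body was covered in the 8 lists. Thus 4 of the 9 genes had a 5′ peak in all lists and 2 in none, against 14.2% and 53.5% of all genes. *dsc-4*, the microsomal triglyceride transfer protein that loads lipid onto vitellogenin, had a peak only in both DVE-1 lists with *atp-2* RNAi. *rme-8*, an endosomal J-domain protein, was without a DVE-1 peak on control RNAi alone.

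Lists of tissue marker genes were counted in the same way, and their counts are to be read beside the shares of all genes given above for each list. Of 12 intestine genes, HDA-1 had a 5′ peak at 8 under control RNAi, 10 with *atp-2* RNAi, 5 with *dve-1* RNAi and 8 with both. DVE-1 had one at 9, 11, 11 and 12 of them. Of 6 genes of body wall muscle, HDA-1 had peaks at 3, 2, 5 and 5. From control to *dve-1* RNAi the HDA-1 count was thus 8 and 5 of 12 for intestine genes and 3 and 5 of 6 for muscle genes, while the share of all genes was 31.8% and 27.8%. These differences between the marker lists were not tested. The median covered share of the muscle genes was 2.01% under control RNAi and 28.4% with *dve-1* RNAi, and that of the intestine genes 7.67% and 3.91%. DVE-1 had peaks at 0, 0, 3 and 3 muscle genes. HDA-1 had peaks at 0, 0, 2 and 3 of 6 hypodermis genes and at 3, 3, 4 and 4 of 6 neuron genes. The higher counts with *dve-1* RNAi were thus not particular to muscle. DVE-1 had peaks at 1, 1, 1 and 2 hypodermis genes and at 1 neuron gene in each list. Of 6 germ line genes, *spo-11*, the meiotic endonuclease, was the only one with a 5′ peak in any list, and 0% of its body was covered. The other 5 had none, and neither had 53.5% of all protein-coding genes. The part of these differences in the vitellogenin values was not tested.

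The genes of 2500 to 10000 bp whose coverage over the 8 lists was most like the median of the vitellogenin genes were M106.3, *endu-2*, *kqt-2*, K07E3.4 and *npr-13*, with mean absolute differences of 14, 14.6, 14.7, 14.8 and 14.9 percentage points. *kqt-2* lies within *endu-2*, so these are not separate loci. *endu-2* was covered by HDA-1 over 81.6% under control RNAi and 33.1% with *atp-2* RNAi, and by DVE-1 over 87.7% and 55.8%. With *dve-1* RNAi HDA-1 covered 43.2% of *endu-2*, where the vitellogenin median was 0%.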

How the data were processed

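The authors mapped the ChIP-seq reads with BWA 0.7.13-r1126 to ce11. They kept unique, properly paired reads, removed duplicates with Picard 2.17.6 and called broad peaks with MACS2 2.1.1. The deposited lists hold peak positions in bp (other values such as scores are not in them), 1 list for each of the 8 conditions, and how the 2 or 3 samples of a condition were combined is not given in the sources used here. Depth per sample cannot be read from positions.

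Conditions were taken from the labels. Gene models were Ensembl release 115 on WBcel235, the assembly of ce11, and positions count from 1. A peak counted when it overlapped the window of 500 bp on each side of the 5′ end by at least 1 bp. The code was tested on simulated data, and its counts for all 8 lists were equal to those of bedtools 2.31.1. Coding sequences and promoters were aligned with Biopython 1.88. The named genes were all 6 members, their neighbours, regulators and uptake genes with a 5′ peak in all lists, in none or with *atp-2* RNAi only, and the 5 genes most alike. *ceh-60* and *spo-11* were named after their values were seen. The members and lists were chosen with earlier results of these data known, and the rule of 50 percentage points was set after the data were examined. Python 3.11.15, numpy 2.4.6 and matplotlib 3.10.9 were used. RNA-seq was not analysed here. Alternatives changed the window, the width and number of peaks, the gene ends and the bases counted.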

Additional observations from a re-analysis of the deposited data

Results flagged for a closer look

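In 4 cases the covered bp of a gene body differed in opposite directions between the lists with and without *atp-2* RNAi, depending on the other RNAi. Each rests on 1 list per condition, and the difference was not tested. HDA-1 covered 5280 bp of *vit-1* under control RNAi and 780 bp with *atp-2* RNAi, but 0 bp under *dve-1* RNAi and 321 bp with *atp-2* RNAi added, and the changes differed by 4821 bp. For HDA-1 in *vit-5* the values were 2642 and 275 bp on control RNAi and 0 and 88 bp on *dve-1* RNAi, a difference of 2455 bp. From 0 bp, coverage could only be equal or higher. For DVE-1 in *vit-3* the values were 2203 and 474 bp on control RNAi and 530 and 598 bp on *hda-1* RNAi, a difference of 1797 bp. For DVE-1 in *vit-4* they were 317 and 47 bp and 11 and 349 bp, a difference of 608 bp. Of the 317 and 349 bp, 290 and 254 bp lay in a peak over *rgs-7* that crossed the 3′ end of *vit-4*. The 5′ peak of *vit-4* alone covered 27 and 47 bp on control RNAi and 11 and 95 bp on *hda-1* RNAi. It thus covered more with *atp-2* RNAi on either background.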

How the results depend on the processing

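No paired analysis was possible because each condition has 1 list without values per sample, and for the same reason no replicate could be left out. With windows of 250 or 1000 bp, with the 5′ end itself and with RefSeq gene ends, no count of genes with a 5′ peak moved by more than 1.5 times in any of the 8 lists. For HDA-1 with *dve-1* and *atp-2* RNAi, the count of 4 became 2 when at least 50% of the window had to be covered, 2 with peaks of at least 500 bp and 1 with the widest 4279 peaks. For HDA-1 with *atp-2* RNAi on control RNAi, the count of 6 became 2 with the widest 4279 peaks. At that setting the DVE-1 count of 6 became 4 with *atp-2* RNAi on control RNAi and 5 in either list with *hda-1* RNAi. Covered shares of the gene bodies follow in the order HDA-1 under control, *atp-2*, *dve-1* and both RNAi, then DVE-1 under control, *atp-2*, *hda-1* and both. Against 67.5%, 38.1%, 27.3%, 27.9%, 71.2%, 55.3%, 53.1% and 52.2%, unique 100-base words gave 85.2%, 50.9%, 37.1%, 37.9%, 88.9%, 73.1%, 68.5% and 69%. Chosen after the data were seen, 50-base words gave 90.2%, 56.9%, 42.6%, 43.5%, 92.7%, 79.7%, 72.9% and 75.4%, 150-base words gave 81.7%, 47.5%, 34.1%, 34.8%, 85.8%, 68.6%, 65.2% and 64.6%, and leaving out *vit-3*, *vit-4* and *vit-5* gave 100%, 71.4%, 54.3%, 54.9%, 100%, 100%, 77.1% and 87.5%. With 1000 bp added on each side, the shares were 68.1%, 43.6%, 24.1%, 24.3%, 71.1%, 60.3%, 60.2% and 60%. Peaks of at least 500 bp gave 26.6% for HDA-1 with *dve-1* and *atp-2* RNAi, and the widest 4279 peaks gave 25.2% there and 36.3% with *atp-2* RNAi. Exons alone gave 67.3%, 38.4%, 27.5%, 28.1%, 71%, 55.7%, 52.8% and 52.1%. These alternatives differ by construction in the bases or peaks counted, and no other cause was tested.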
